A study of Mus musculus with 7 samples.

Results

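The genes described here encode the nuclear parts of mitochondrial respiratory complexes II, III and IV, cytochrome c and ATP synthase, together with assembly factors of complex IV and the ATP synthase inhibitor. They were chosen by symbol: Sdha to Sdhd, every Uqcr gene, Cyc1, Cycs, Cox5a, Cox5b, Cox6b1, Cox6c, Cox7b and Cox7c, Cox10 to Cox20 where listed, Surf1, Sco1, Sco2, every Atp5 gene, Usmg5 and Atpif1. Genes named Cox4i, Cox6a, Cox7a or Cox8, which include the tissue isoforms of complex IV subunits, and mitochondrially encoded genes were not taken. The rule found 51 of the 22027 genes in the count table, in these roles: 4 of complex II, 9 of complex III, cytochrome c, 6 complex IV subunits, 12 complex IV assembly factors, 5 of the F1 part of ATP synthase and 14 of its Fo part and stalks or tied to them. Of the 51, 50 passed the filter on low counts. Sco2, a copper chaperone of complex IV whose exons overlap those of Tymp on the same strand, was listed at 0 in all 7 libraries and was not tested.

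RNA sequencing was done on left ventricle, the main pumping chamber of the heart. There were 3 libraries labelled G3 PGC1aOE, described as PGC1alpha overexpressed, and 4 labelled G3, described as telomerase-deficient. All 7 share the strain C57BL/6J, an age of 12 months and the G3 label, and no wild-type library was analysed here. The labels name neither the promoter that drives PGC1alpha, nor the cells that carry it, nor whether libraries come from separate animals, so a p-value speaks of the spread among these libraries, which may be technical. Each description also carries a code with a number, 55, 81 and 82 in G3 PGC1aOE 1 to 3 and 40, 67, 50 and 83 in G3 1 to 4. The text of the code reads G2 in G3 PGC1aOE 1, G3 1 and G3 3, against their G3 label, and G3 in the other libraries. The letters before that text are PC in all 3 libraries labelled G3 PGC1aOE. In G3 they are mixed: C in G3 1 and G3 2, none in G3 3 and P in G3 4. What the code means is not stated, and differences within code numbers below 80 (1 library against 3) and at 80 and above (2 against 1) are given as descriptions.

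Complex II passes electrons from succinate to ubiquinone, complex III passes them to cytochrome c, and complex IV uses them to reduce oxygen. Complexes III and IV pump protons across the inner mitochondrial membrane, and ATP synthase uses their return flow to make ATP. Heart muscle is packed with these enzymes, and PGC1alpha, encoded by Ppargc1a, is a coactivator of the transcription factors that drive many of their genes, among them NRF1, GABPA, ERRalpha and YY1.

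Sites of those factors were looked for in the members' promoters because they are the known route by which PGC1alpha reaches these genes. Of the 51 members, 41 matched a RefSeq window of 250 bases before to 50 after the transcription start (GRCm38.p6, a later build than that of the counts). Both strands were searched, with any window of a gene counted. The NRF1 letters, GCGCA, any base, then GCGC, were in 10 of the 41 (24.4%), against 5.19% of all 27025 genes with a window and 11.3% of the tested genes with one. The ETS letters CCGGAAG, which the GABP complex reads, were in 18 of the 41 (43.9%), against 9.93% of all genes and 19.6% of tested genes. The YY1 letters AAGATGGCG were in 3 members (7.32%), against 1.64% and 3.53%, and the ERR letters TNAAGGTCA were in 2, Atp5g3 and Sdhd (4.88%), against 1.43% and 0.854%. The Sp1 letters GGGCGG were in 20 members (48.8%), against 38.2% and 68.4%. In 0 member windows did matches of different motifs share bases. These are letter matches and say nothing of binding. The stretches below surround 1 named match each in genes taken up later, 5′ to 3′ on the strand of the gene, with that match in capitals. The Cox20 stretch also holds an Sp1 match, which is left in small letters.
Atp5e, ETS, chr2:174464171-174464229, minus strand: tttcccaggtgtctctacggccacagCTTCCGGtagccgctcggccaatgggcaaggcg
Uqcr11, ETS, chr10:80406855-80406913, minus strand: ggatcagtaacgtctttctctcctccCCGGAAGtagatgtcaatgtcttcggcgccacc
Cox20, ETS, chr1:178319024-178319082, plus strand: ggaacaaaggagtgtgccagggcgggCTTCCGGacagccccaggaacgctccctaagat
Atp5h, NRF1, chr11:115420025-115420086, minus strand: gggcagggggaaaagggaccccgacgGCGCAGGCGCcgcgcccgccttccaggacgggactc
Atp5g3, ERR, chr2:73911344-73911404, minus strand: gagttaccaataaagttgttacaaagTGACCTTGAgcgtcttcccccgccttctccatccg
The match ends 96 bases before the start in Atp5e, 60 in Uqcr11, 97 in Cox20, 132 in Atp5h and 44 in Atp5g3.

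Ppargc1a (ENSMUSG00000029167) checks the label and was not higher. It had 103, 43.9 and 58.1 CPM in G3 PGC1aOE 1 to 3, against 94.7, 56.8, 118 and 86.7 CPM in G3 1 to 4, where CPM is the count scaled to a common library total with TMM. The groups overlapped, at 68.3 ± 30.8 CPM (SD, n = 3) and 89.1 ± 25.4 CPM (SD, n = 4), and the log2 fold change was −0.38 (SE 0.34, 95% interval −1.12 to 0.36, edgeR adjusted p = 0.847). Its difference of group mean log2 CPM was 0.26 among code numbers below 80 and −0.78 at 80 and above. Whether the counting took in reads of the added PGC1alpha is not given in the sources used here. Every direction below is therefore that of the libraries labelled G3 PGC1aOE. Total counts ran between 11576569 and 16056740 in those libraries and between 10106705 and 14119403 in G3, and the members took 2.82%, 4.43% and 3.80% of counts in G3 PGC1aOE 1 to 3, against 2.90%, 3.49%, 3.34% and 3.38% in G3 1 to 4.

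Of the 50 tested members, 40 had a fitted log2 fold change above 0 and 10 below it, with a median of 0.45, whereas the median of all 12674 tested genes was 0.0076 with 50.9% above 0. No member passed the threshold (edgeR, adjusted p under 0.05; 0.0% of all tested genes did), and the lowest adjusted p was 0.847. At an unadjusted p under 0.05, 3 members were called, Cox19, Cox17 and Atp5mpl, against 4.32% of all tested genes. All 3 were higher (3.05% of genes) and 0 were lower (1.27% of genes). DESeq2 called 0 members (0.00566% of genes), and 9 had p under 0.05 before adjustment (3.99% of genes). By limma voom 0 were called (0.0%), and 13 had p under 0.05 before adjustment (9.63%). Fold changes ran between −0.49 for Sdha and 0.94 for Atp5j2.

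The 3 libraries labelled G3 PGC1aOE did not stand together. G3 PGC1aOE 2 and 3 lay above all 4 G3 libraries in 29 of the 50 members (15.0% of all tested genes), while G3 PGC1aOE 1 lay below all 4 in 34 members (16.3%). The highest value fell in G3 PGC1aOE 2 for 21 members, in G3 PGC1aOE 3 for 20 and in a G3 library for 9, and the lowest fell in G3 PGC1aOE 1 for 30. Averaged over the members, log2 CPM deviated from the mean of all libraries by −0.44, 0.43 and 0.46 in G3 PGC1aOE 1 to 3, against −0.37, −0.11, −0.056 and 0.093 in G3 1 to 4. In CPM the groups did not overlap for 2 members, against 4.58% of tested genes: Cox19, higher (2.19% of genes), and Atp5a1, lower (2.39%). Without G3 PGC1aOE 1 the median was 0.76 and 28 members had an unadjusted p under 0.05 (19.1% of genes), all of them higher (10.4% of genes), yet 0 members passed and the lowest adjusted p was 0.0982. Without G3 PGC1aOE 2 the median was 0.16 and 0 members had an unadjusted p under 0.05 (1.8% of genes), and without G3 PGC1aOE 3 the median was 0.33 with 2 such members (2.66% of genes). A covariate for the code number, as below 80 or not, gave a median of 0.050 with 32 members above 0. A covariate for the code text gave a median of 0.25 with 37 members above 0. The mean difference over members was −0.27 among code numbers below 80 and 0.35 at 80 and above.

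**Figure D1:**
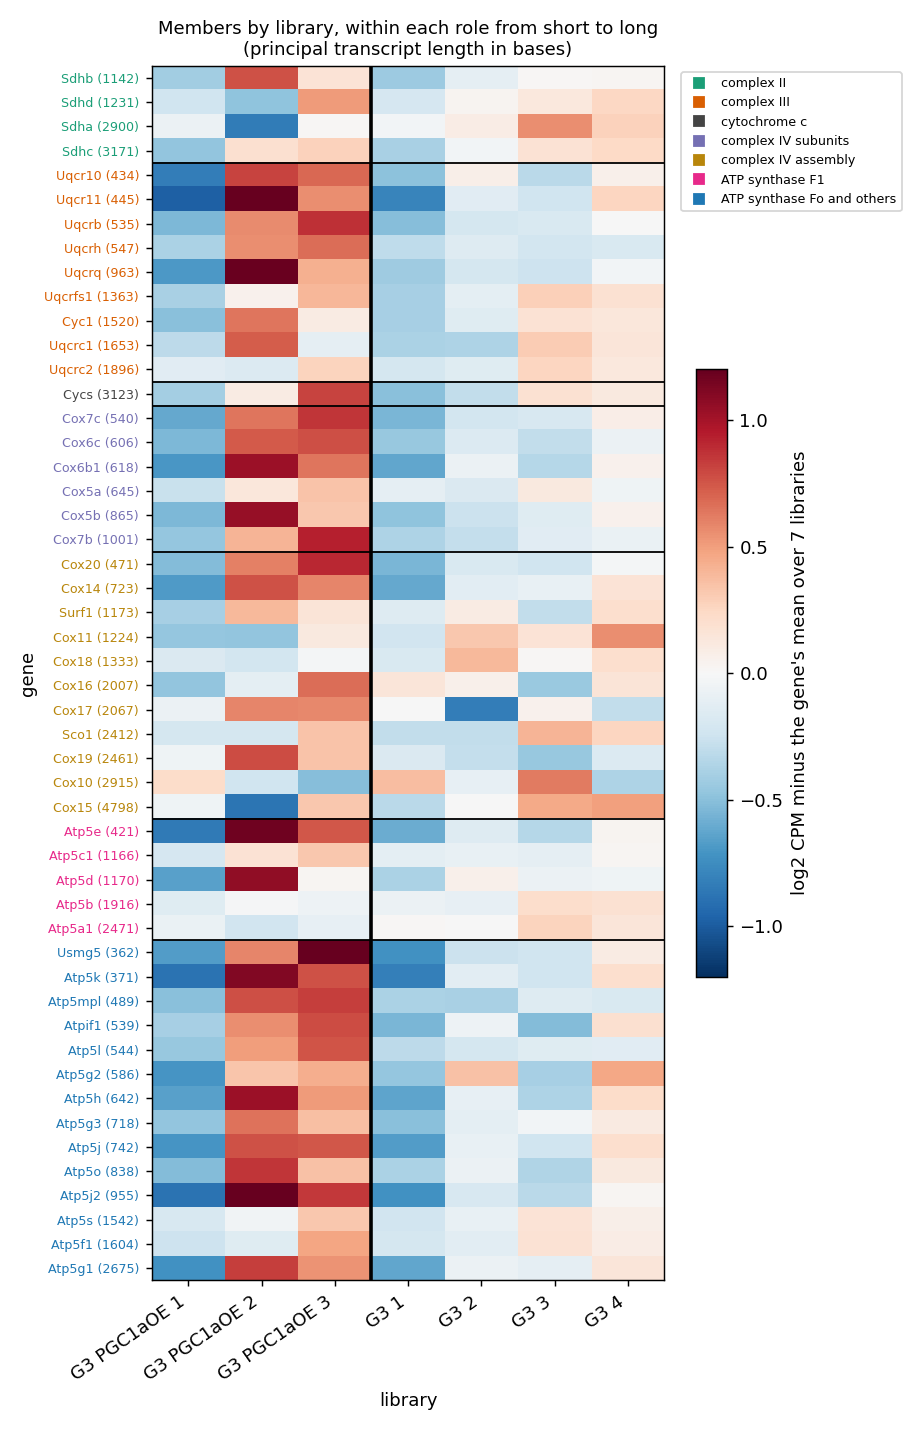
Heat map of each member's log2 CPM minus its mean over the 7 libraries, with genes in rows by role, short to long, and libraries in columns. G3 PGC1aOE 1 and G3 1 lie mostly below 0, and G3 PGC1aOE 2 and 3 mostly above it.

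Complex II showed no shared direction. Of its 4 genes 2 were above 0 and 2 below, with a median log2 fold change of −0.022, or 0.018 with upper quartile scaling, which moved the median of all genes by 0.040. Sdha (ENSMUSG00000021577), the flavin-carrying catalytic subunit that oxidises succinate, had 993, 584 and 1054 CPM in G3 PGC1aOE 1 to 3, against 1019, 1108, 1534 and 1262 CPM in G3 1 to 4. G3 PGC1aOE 2 was the lowest of all and G3 3 the highest, with the groups overlapping, and the log2 fold change was −0.49 (SE 0.30, 95% interval −1.16 to 0.18, edgeR adjusted p = 0.847). Sdhb, the iron-sulfur subunit that carries the electrons onward, had 545, 1235 and 813 CPM in G3 PGC1aOE 1 to 3, against 537, 676, 732 and 740.1 CPM in G3 1 to 4. Here G3 PGC1aOE 2 and 3 were the highest, G3 PGC1aOE 1 lay within the G3 range, and the log2 fold change was 0.36 (SE 0.31, 95% interval −0.33 to 1.06, edgeR adjusted p = 0.847). The membrane anchors Sdhc and Sdhd stood at 0.018 (adjusted p = 0.989) and −0.063 (adjusted p = 0.964). Scaling of whole libraries cannot move the ratio of Sdhb to Sdha counts, but a library's trend with transcript length or GC content can. The principal annotated transcripts have 1142 bases for Sdhb and 2900 for Sdha. The ratio was 0.549, 2.11 and 0.771 in G3 PGC1aOE 1 to 3, against 0.527, 0.611, 0.477 and 0.586 in G3 1 to 4. G3 PGC1aOE 2 and 3 lay above every G3 library in this ratio, and G3 PGC1aOE 1 lay within the G3 range.

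In complex III, 8 of 9 genes were above 0, with a median of 0.54, and the small subunits led. Uqcr11 (ENSMUSG00000020163), a small subunit at the edge of the complex, had 302, 1499 and 878 CPM in G3 PGC1aOE 1 to 3, against 345, 544, 507 and 714 CPM in G3 1 to 4. Its lowest and highest libraries, G3 PGC1aOE 1 and 2, carried the same label and differed 4.96-fold, the widest spread among the members. Its log2 fold change was 0.76 (SE 0.46, 95% interval −0.27 to 1.79, edgeR adjusted p = 0.847). Uqcrb, a small subunit near the ubiquinone site, had 354, 763 and 947 CPM in G3 PGC1aOE 1 to 3, against 362, 446, 454 and 513 CPM in G3 1 to 4, with a log2 fold change of 0.63 (SE 0.34, adjusted p = 0.847). For Uqcrh, the hinge protein that helps cytochrome c dock, the values were 480.0, 922 and 996 CPM in G3 PGC1aOE 1 to 3, against 505, 563, 538 and 551 CPM in G3 1 to 4, with a log2 fold change of 0.57 (SE 0.29, adjusted p = 0.847). In all of these G3 PGC1aOE 1 was the lowest library and the other two were the highest. Uqcrq and Uqcr10, also small subunits, stood at 0.72 and 0.54. The larger subunits were nearer to 0: Uqcrc1 at 0.22 and Uqcrc2 at −0.015 among the core proteins, the cytochrome Cyc1 at 0.19, and Uqcrfs1, the Rieske iron-sulfur protein, at 0.046. The ratio of Uqcr11 to Uqcrc2 counts was 0.459, 2.33 and 1.01 in G3 PGC1aOE 1 to 3, against 0.551, 0.832, 0.589 and 0.907 in G3 1 to 4.

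Cycs, cytochrome c itself, had 249.8, 355 and 579 CPM in G3 PGC1aOE 1 to 3, against 233, 269, 374 and 359 CPM in G3 1 to 4. G3 PGC1aOE 3 alone stood above G3, and the log2 fold change of 0.35 (SE 0.33, adjusted p = 0.847) was −0.033 without that library.

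All 6 complex IV subunits were above 0, with a median of 0.62, and none passed the test. Cox6c, a small membrane subunit, had 822, 1996 and 2048 CPM in G3 PGC1aOE 1 to 3, against 872, 1069, 972 and 1141 CPM in G3 1 to 4. Cox7b, another one, had 643, 1175 and 1701 CPM in G3 PGC1aOE 1 to 3, against 687, 729, 809 and 839.6 CPM in G3 1 to 4. For Cox7c, which lies beside the catalytic core, the values were 683, 1635 and 1904 CPM in G3 PGC1aOE 1 to 3, against 719, 901, 916 and 1109.7 CPM in G3 1 to 4. In these 3 genes G3 PGC1aOE 1 was below every G3 library and G3 PGC1aOE 3 was the highest. Their log2 fold changes were 0.68 (SE 0.34), 0.61 (SE 0.33) and 0.63 (SE 0.36), each at an edgeR adjusted p of 0.847. Cox6b1, which faces the intermembrane space and links the complexes of the dimer, had 522, 1725 and 1318 CPM in G3 PGC1aOE 1 to 3, against 550.2, 808, 669 and 876 CPM in G3 1 to 4. Its highest library was G3 PGC1aOE 2, and its log2 fold change was 0.71 (SE 0.38, 95% interval −0.14 to 1.56, edgeR adjusted p = 0.847). Cox5b followed at 0.61, and Cox5a stood at 0.14 (SE 0.26, adjusted p = 0.911).

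**Figure D2:**
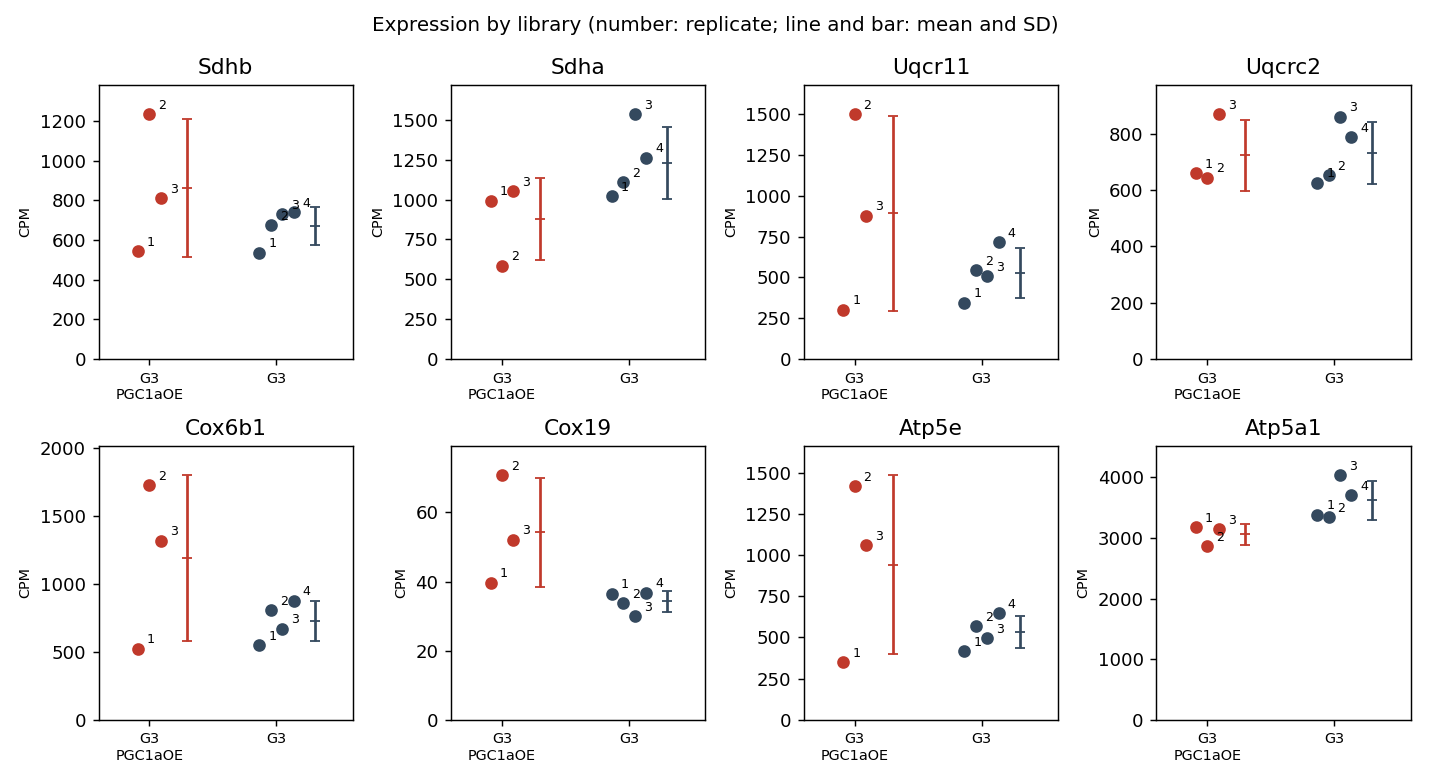
CPM of 8 members in each library, with group means and SDs (n = 3 G3 PGC1aOE, n = 4 G3). Uqcr11, Cox6b1 and Atp5e split the libraries labelled G3 PGC1aOE into 1 low and 2 high, while Atp5a1 and Cox19 alone show no overlap between groups in CPM.

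The assembly factors of complex IV were divided, 6 above 0 and 5 below, with a median of 0.11, or −0.060 on log2 FPKM (pseudocount 1), which moved the median of all genes by −0.088. They include Cox19 (ENSMUSG00000045438), a small protein of the copper pathway, which had 39.7, 70.8 and 52.1 CPM in G3 PGC1aOE 1 to 3, against 36.5, 33.8, 29.96 and 36.8 CPM in G3 1 to 4. All 3 libraries labelled G3 PGC1aOE lay above every G3 library, and the log2 fold change was 0.66 (SE 0.23, 95% interval 0.16 to 1.17, edgeR adjusted p = 0.847). Without overlap the difference had to be above 0 within code numbers too, and it was 0.25 among code numbers below 80 and 0.72 at 80 and above. Cox17, the copper chaperone that hands copper to Sco1, Sco2 and Cox11, had 31.1, 49.1 and 48.7 CPM in G3 PGC1aOE 1 to 3, against 32.6, 18.4, 33.9 and 26.6 CPM in G3 1 to 4. Its log2 fold change was 0.62 (SE 0.26, 95% interval 0.041 to 1.21, edgeR adjusted p = 0.847), and the groups overlapped because G3 1 and G3 3 passed G3 PGC1aOE 1. The exons of Cox17 overlap those of another annotated gene on the same strand, and how such reads were counted is not given in the sources used here.

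Cox20, a chaperone of the mitochondrially encoded subunit COX2, had 43.9, 95.2 and 117 CPM in G3 PGC1aOE 1 to 3, against 42.96, 55.3, 53.3 and 61.8 CPM in G3 1 to 4. Its log2 fold change was 0.68 (SE 0.31, adjusted p = 0.847), with G3 PGC1aOE 1 inside the G3 range. Cox14, which guards newly made COX1, had 79.7, 217 and 191 CPM in G3 PGC1aOE 1 to 3, against 83.4, 117, 119.8 and 143 CPM in G3 1 to 4, with a log2 fold change of 0.49 (SE 0.34, adjusted p = 0.847). Of the rest, Cox11, which places copper in COX1, stood at −0.48, Cox10 and Cox15, which turn haem into haem A, at −0.33 and −0.31, and Cox18, the membrane insertase of COX2, at −0.26, and none of these passed the test. Sco1, a copper chaperone, stood at −0.053, and Surf1 and Cox16 at 0.11 each. The ratio of Cox17 to Cox10 counts was 0.570, 1.24 and 1.49 in G3 PGC1aOE 1 to 3, against 0.540, 0.420, 0.470 and 0.733 in G3 1 to 4, with G3 PGC1aOE 1 inside the G3 range.

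Among the 5 genes of the F1 part of ATP synthase, 3 were above 0 and 2 below, with a median of 0.19. The genes of the catalytic ring were among the steadiest members. Atp5a1 (ENSMUSG00000025428), the alpha subunit, had 3179, 2859 and 3143 CPM in G3 PGC1aOE 1 to 3, against 3382, 3345, 4036 and 3704 CPM in G3 1 to 4. All 3 libraries labelled G3 PGC1aOE lay below all 4 G3 libraries, at 3060 ± 175 CPM (SD, n = 3) and 3617 ± 323 CPM (SD, n = 4), and the log2 fold change was −0.24 (SE 0.26, 95% interval −0.81 to 0.33, edgeR adjusted p = 0.856). On deposited FPKM the groups overlapped, since G3 PGC1aOE 1 at 2358 FPKM lay above G3 4 at 2327 FPKM. Atp5b, the beta subunit that carries the catalytic sites, had 3888, 4244 and 4103 CPM in G3 PGC1aOE 1 to 3, against 4093, 3993, 4964 and 4855 CPM in G3 1 to 4, with a log2 fold change of −0.13 (SE 0.26, adjusted p = 0.919) and the smallest spread of any member, 1.28-fold between the highest and lowest library. In the central stalk, Atp5e and Atp5d varied more. Atp5e, the epsilon subunit, had 349.7, 1419 and 1059 CPM in G3 PGC1aOE 1 to 3, against 417, 568, 497 and 648 CPM in G3 1 to 4. G3 PGC1aOE 1 was the lowest library, G3 PGC1aOE 2 the highest, and the log2 fold change was 0.82 (SE 0.41, 95% interval −0.090 to 1.74, edgeR adjusted p = 0.847). Atp5d, the delta subunit, had 359, 1181 and 574 CPM in G3 PGC1aOE 1 to 3, against 433, 589, 539 and 544 CPM in G3 1 to 4, with a log2 fold change of 0.42 (SE 0.37, adjusted p = 0.847) that was −0.17 without G3 PGC1aOE 2. Atp5c1, the gamma subunit that turns within the ring, stood at 0.19, with a spread of only 1.44-fold between the highest and lowest library. The ratio of Atp5e to Atp5a1 counts was 0.110, 0.496 and 0.337 in G3 PGC1aOE 1 to 3, against 0.123, 0.170, 0.123 and 0.175 in G3 1 to 4.

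All 14 genes of the Fo part, the stalks and their partners were above 0, with a median of 0.57, and none passed. Atp5j2 (ENSMUSG00000038690), subunit f, had 359, 1583 and 1191 CPM in G3 PGC1aOE 1 to 3, against 399.6, 579, 530.1 and 671 CPM in G3 1 to 4. Its log2 fold change of 0.94 (SE 0.43, 95% interval −0.019 to 1.90, edgeR adjusted p = 0.847) was the highest among the members, with G3 PGC1aOE 1 below every G3 library. Atp5mpl, a small proteolipid bound to the membrane part, had 254, 613 and 638 CPM in G3 PGC1aOE 1 to 3, against 276, 275, 323 and 316 CPM in G3 1 to 4. Its groups overlapped through G3 PGC1aOE 1, and its log2 fold change was 0.75 (SE 0.32, 95% interval 0.037 to 1.47, edgeR adjusted p = 0.847). Atp5o, the stalk protein OSCP that holds the ring still, had 742, 1937 and 1362 CPM in G3 PGC1aOE 1 to 3, against 819.5, 1019.6, 833 and 1157 CPM in G3 1 to 4, with a log2 fold change of 0.49 (SE 0.34, adjusted p = 0.847). The remaining stalk genes Atp5h, Atp5j and Atp5f1 stood at 0.63, 0.58 and 0.073, the dimer subunits Atp5k and Atp5l at 0.75 and 0.56, Usmg5, also tied to dimers, at 0.82, and Atp5s, the coupling factor B gene, at 0.059.

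The c subunit that forms the rotating ring is made from 3 genes whose proteins are the same once their import signals are removed. Atp5g1 had 800.5, 2343 and 1918 CPM in G3 PGC1aOE 1 to 3, against 859.8, 1260.3, 1227 and 1464 CPM in G3 1 to 4. Atp5g3 had 939.8, 2053 and 1676 CPM in G3 PGC1aOE 1 to 3, against 924, 1203, 1276 and 1403 CPM in G3 1 to 4. Atp5g2 had 82.4, 169.7 and 182 CPM in G3 PGC1aOE 1 to 3, against 97.5, 172, 102 and 186 CPM in G3 1 to 4. G3 PGC1aOE 2 and 3 were the highest libraries for Atp5g1 and Atp5g3 but not for Atp5g2, whose highest value was in G3 4. Their log2 fold changes were 0.49 (SE 0.37, adjusted p = 0.847), 0.37 (SE 0.32, adjusted p = 0.847) and 0.053 (SE 0.34, adjusted p = 0.975). By deposited FPKM, which scales counts by gene length and library total, Atp5g3 made up 73.9%, 69.9% and 68.4% of the summed c subunit message in G3 PGC1aOE 1 to 3, against 71.6%, 67.8%, 72.7% and 68.4% in G3 1 to 4, so the mix overlapped between groups. The message sequences of these genes were not compared here, and any reads that match several of them may have been split between the genes.

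Atpif1, which blocks ATP hydrolysis by the synthase when the proton gradient fails, had 174, 337 and 393 CPM in G3 PGC1aOE 1 to 3, against 157, 219.6, 159.8 and 263 CPM in G3 1 to 4. Its log2 fold change was 0.59 (SE 0.33, 95% interval −0.13 to 1.31, edgeR adjusted p = 0.847), with G3 PGC1aOE 1 inside the G3 range. The ratio of Atpif1 to Atp5b counts was 0.0446, 0.0794 and 0.0959 in G3 PGC1aOE 1 to 3, against 0.0384, 0.0550, 0.0322 and 0.0541 in G3 1 to 4. The values of G3 PGC1aOE 2 and 3 were above every G3 library and that of G3 PGC1aOE 1 was not.

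**Figure D3:**
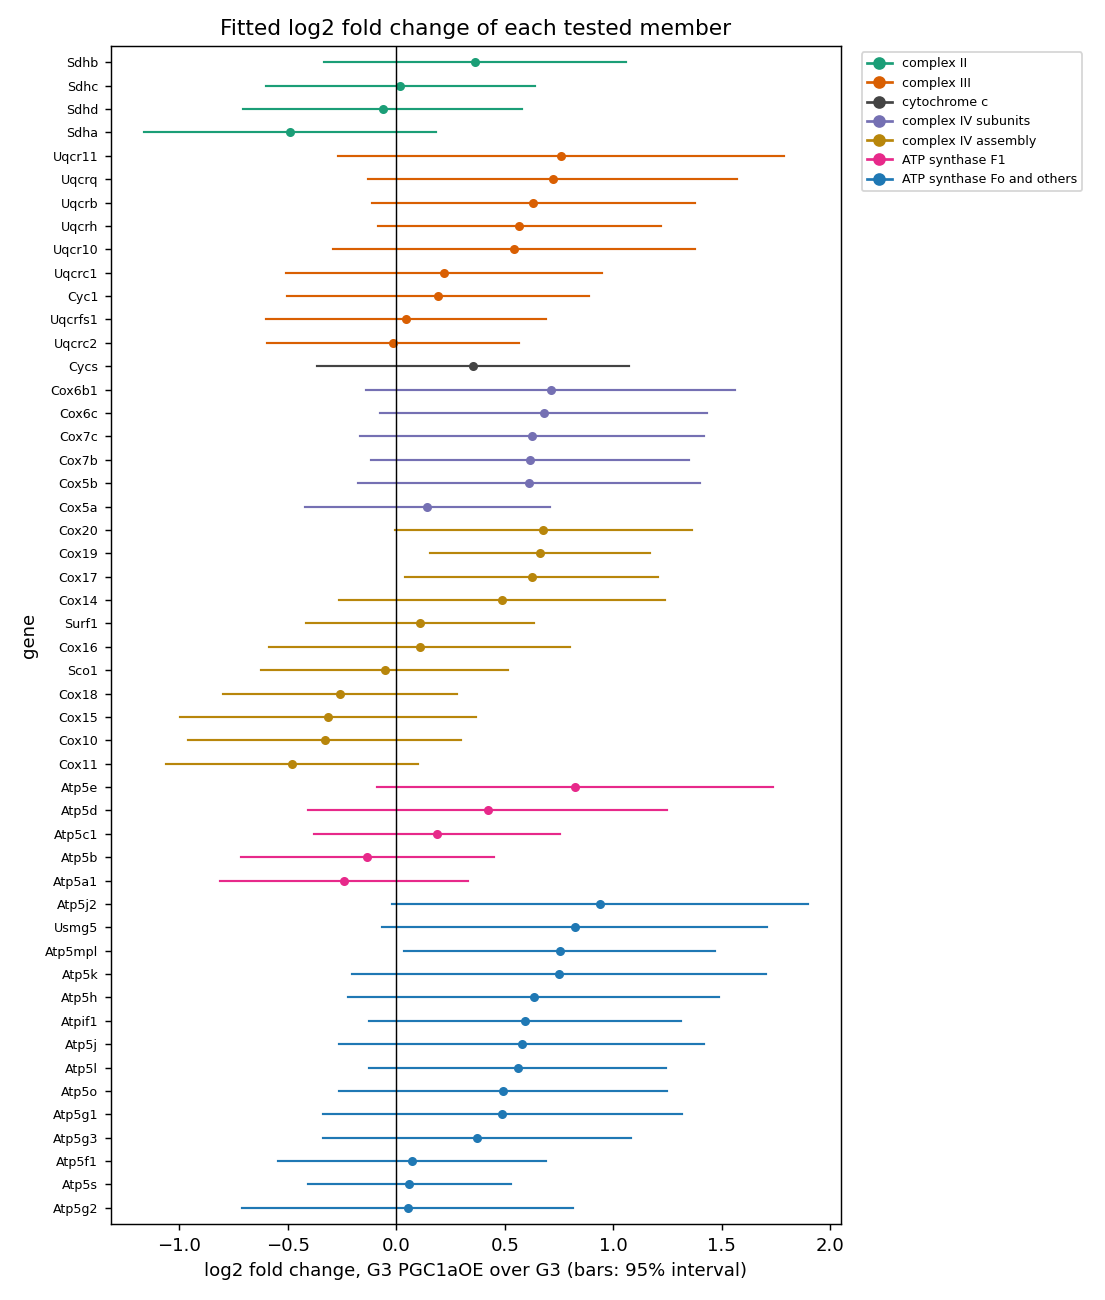
Log2 fold change (G3 PGC1aOE minus G3) of the 50 tested members with 95% intervals, by role. Intervals cross 0 for all but Cox19, Cox17 and Atp5mpl, and no adjusted p is below 0.847.

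The order of the members followed transcript length. Across the 50 members, the Spearman correlation of log2 fold change with the length of the principal annotated transcript was −0.71, and across 12648 tested genes it was −0.39. These are correlations across genes, which are not independent replicates. Under 750 bases, 20 of 20 members were above 0 with a median of 0.63, beside 92.4% of the 343 tested genes of that length, with a median of 0.55. From 750 to 1500 bases the count was 10 of 13 members with a median of 0.36, beside 81.4% of genes and 0.26. From 1500 to 3000 bases it was 8 of 14 with a median of 0.066, beside 57.2% and 0.052, and at 3000 and above 2 of 3, beside 36.2%. Single libraries carried the trend: the correlation of a library's deviation with principal length over all genes was 0.43, −0.40 and −0.40 in G3 PGC1aOE 1 to 3, against 0.24, 0.081, 0.30 and −0.0089 in G3 1 to 4.

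With each library's trend on deposited gene length removed, the members' median was 0.023 and 28 of 50 were above 0, beside 49.3% of all tested genes. Log2 fold changes then still had a Spearman correlation with principal length, of −0.26 across the 50 members and −0.13 across 12648 tested genes. The medians became −0.086 for complex II, 0.056 for complex III, 0.058 for complex IV subunits, −0.18 for complex IV assembly, 0.025 for F1 and 0.032 for the Fo group. Single members moved unequally, and for some the value hung on which length was used, since the deposited length is not that of the principal transcript for every gene. Atp5e stood at 0.49 with its deposited length of 840 bases and at 0.065 with its principal length of 421. Cox6c stood at 0.50 with the deposited and 0.13 with the principal length, and Sdha at −0.69 and −0.48. Atp5j2 stood at 0.67 and 0.52, Cox17 at 0.53 and 0.54, and Cox19 at 0.42 and 0.63, in the same order of lengths. Cox7c stood at 0.028 and 0.033, Uqcr11 at 0.10 and 0.0084, and Atp5mpl at −0.015 and 0.11. Each count ratio given above set a gene over one with a longer principal transcript, and the ratios were not corrected for length. What sets the length trend of a library was not tested.

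**Figure D4:**
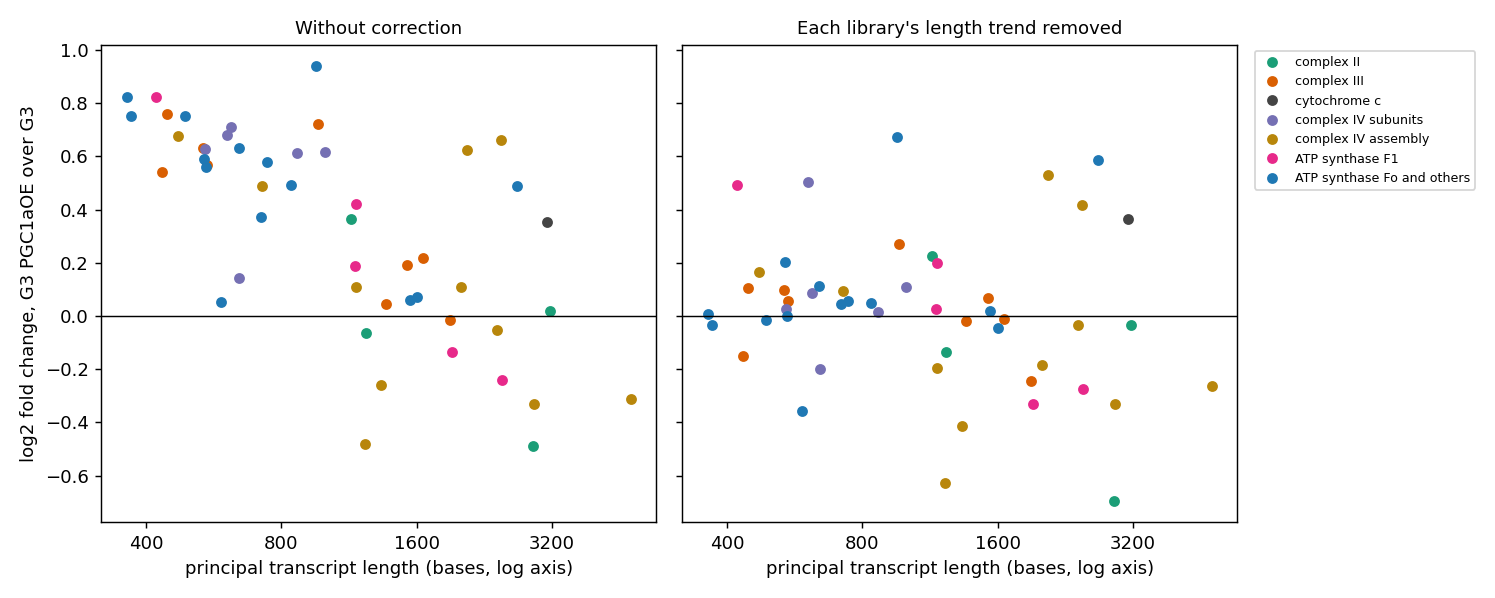
Log2 fold change (G3 PGC1aOE minus G3) against principal transcript length in bases (log axis), 1 point per member, as fitted (left) and with each library's length trend removed (right). On the left all 20 members below 750 bases lie above 0. On the right, where the trend on deposited length was removed, the members scatter around 0.

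Levels between genes are given in FPKM, averaged over all 7 libraries. Atp5b was the most abundant member at 4924 FPKM, followed by Atp5a1 at 2264, Cox7c at 2184, Cox6b1 at 1777 and Atp5g3 at 1722 FPKM. In complex II, Sdha stood at 1454, Sdhb at 648, Sdhd at 264 and Sdhc at 249 FPKM. Cycs stood at 181 FPKM, below every complex III subunit, the lowest of which was Uqcrfs1 at 455. The assembly factors lay far beneath the subunits they serve, with Cox14 at 183, Cox20 at 114, Cox19 at 48.9 and Cox17 at 26.5 FPKM, and Cox18 lowest of those detected at 6.07. The deposited lengths often are not those of the main transcript: Sdha was given 747 bases where its principal transcript has 2900, and Cox6c 1067 where it has 606. With principal lengths, Atp5a1 moved to rank 10 in place of 2, Sdha to rank 34 in place of 12, Cox6c to rank 2 in place of 16 and Atp5e to rank 6 in place of 25, while Atp5b kept rank 1.

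**Figure D5:**
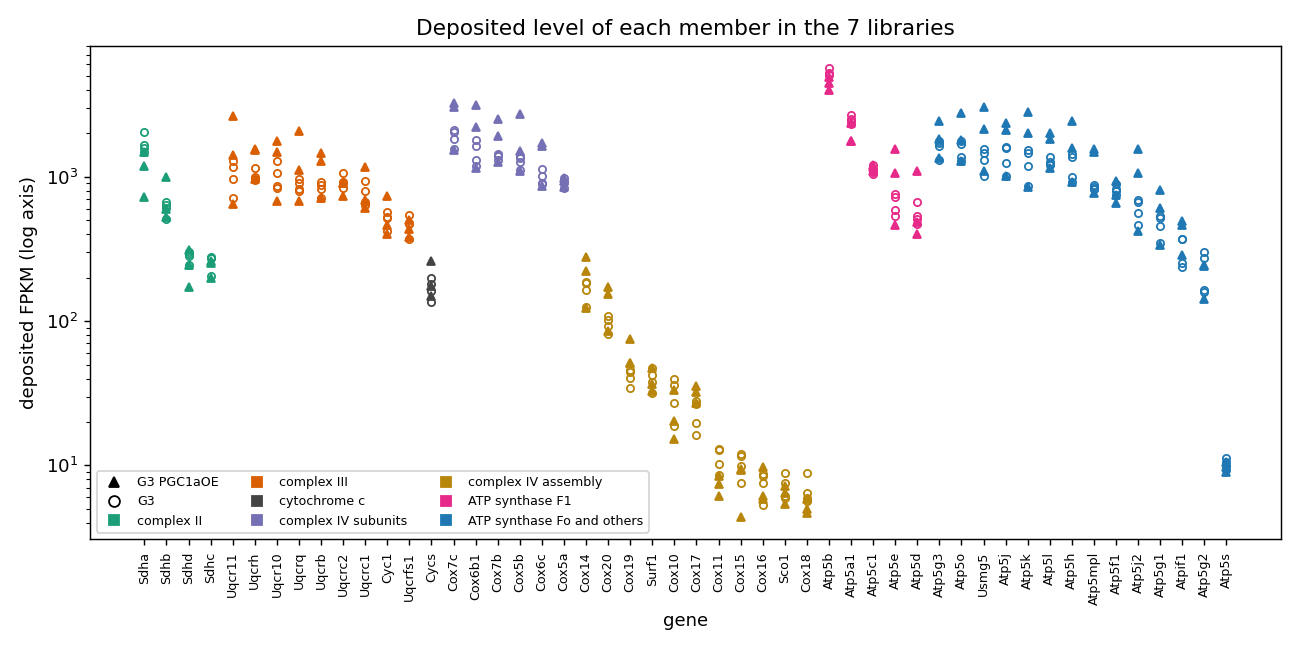
Deposited FPKM (log axis) of each member in each library, by role and then by level, with Sco2 listed at 0 left out. Atp5b tops the plot at 4924 FPKM, and most assembly factors lie below Cox20 at 114 FPKM.

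Genes around these enzymes were counted in the same fit. Of 36 nuclear complex I subunits, 33 were above 0 with a median of 0.55, which was 0.057 with the length trend removed. All 9 tested genes named Cox4i, Cox6a, Cox7a or Cox8, which include ubiquitous forms and Cox7a2l, were above 0, with a median of 0.62. With the length trend removed 6 were, with a median of 0.082. Of the 13 mitochondrially encoded subunits, 12 were above 0 with a median of 0.29, and with the length trend removed 9 were, with a median of 0.13. All 4 assembly factors of complex II were above 0, with a median of 0.47, which was 0.27 with the length trend removed. Sdhaf1 stood at 0.88 and Sdhaf4 at 0.73, each at an unadjusted edgeR p under 0.05 (3.05% of genes were higher at that p) and an adjusted p of 0.847. In both, G3 PGC1aOE 1 lay inside the G3 range. Sdhaf1 had 4.89, 15.7 and 6.70 CPM in G3 PGC1aOE 1 to 3, against 5.29, 4.21, 5.02 and 5.34 CPM in G3 1 to 4. The other assembly factors of complex IV had 9 of 14 above 0 (median 0.29), those of complex III 3 of 6 (median 0.15) and those of ATP synthase 3 of 5 (median 0.024). None of these genes passed the threshold.

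Most regulators ran the other way. Of 12 transcription factors and coactivators of respiratory genes, Ppargc1a included, 2 were above 0 and 10 below. Their median was −0.32, and −0.39 with the length trend removed. Averaged over the 12, log2 CPM deviated from the mean of all libraries by 0.12, −0.44 and −0.25 in G3 PGC1aOE 1 to 3. In G3 1 to 4 it deviated by 0.059, 0.044, 0.30 and 0.17, so G3 PGC1aOE 1 lay within the G3 range. The mean difference was −0.014 among code numbers below 80 and −0.51 at 80 and above. Ppargc1b, the relative of PGC1alpha, had 18.1, 6.63 and 13.99 CPM in G3 PGC1aOE 1 to 3, against 14.9, 22.2, 22.3 and 42.4 CPM in G3 1 to 4. Its log2 fold change was −0.98 (SE 0.41, adjusted p = 0.847). Yy1 had 31.1, 23.6 and 25.99 CPM in G3 PGC1aOE 1 to 3, against 39.03, 39.98, 33.9 and 38.6 CPM in G3 1 to 4, and a log2 fold change of −0.50 (SE 0.19, adjusted p = 0.847). Its groups did not overlap in CPM (2.39% of tested genes were lower in that way), but on deposited FPKM G3 PGC1aOE 1 at 20.5 lay above G3 3 at 19.95. Gabpa stood at −0.46, Esrra at −0.26 and Nrf1 at −0.019. Reads of Gabpa and Atp5j cannot be told apart where the genes overlap on opposite strands, since the library kit does not mark strand. The same holds for Atp5a1 and Haus1, Cox20 and Hnrnpu, and Cox6c and Vps13b.

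Ventricular cardiomyocyte markers summed to between 55895 and 91731 CPM in G3 PGC1aOE and between 54788 and 76786 CPM in G3, with 6 of 10 above 0. Fibroblast markers summed to 1811 to 3010 CPM in G3 PGC1aOE and 1310 to 2167 CPM in G3, with 7 of 8 above 0 and a median log2 fold change of 0.85, or 0.87 with the length trend removed. Although the sums overlapped, 5 of the 8 fibroblast markers were higher without overlap between groups (2.19% of all tested genes). At an unadjusted edgeR p under 0.05, 5 were higher (3.05% of genes), and none passed the adjusted threshold. Endothelial, macrophage, smooth muscle and erythroid sums overlapped widely between groups. Atrial markers summed to 468 to 3923 CPM in G3 PGC1aOE and 72.3 to 2803 CPM in G3, with Myl7 and Sln at 0 in at least 1 library, and adipocyte markers to 8.31 to 52.8 CPM in G3 PGC1aOE and 1.43 to 33.8 CPM in G3, with Lep and Cidec at 0 in at least 1 library. Schwann markers did not overlap, at 11.7 to 18.4 CPM in G3 PGC1aOE and 4.58 to 8.20 CPM in G3. In bulk tissue, fewer cells of a type and less RNA per cell cannot be told apart, and the part of these cells in the members' values was not tested.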

How the data were processed

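The authors deposited a table of read counts per Ensembl gene, whole numbers without normalization, and a table of FPKM, which holds those counts divided by the library total and 1 length per gene. CASAVA and Bowtie 0.12.2 with the mm9 build were used, per the submitters' processing notes. Which program counted reads, with which annotation and with what handling of strand and of multiply matching reads, is not given in the sources used here. RNA was extracted with Trizol and libraries were made with the TruSeq RNA kit, per the labels' protocols. Gene names matched 21748 of 22027 identifiers.

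Counts were filtered with filterByExpr (12674 genes kept, 9353 left out), scaled by TMM and tested with edgeR 4.0.16 in R 4.3.3: quasi-likelihood F-test, robust, 2-sided, group as the only term, Benjamini-Hochberg adjustment over all tested genes, threshold 0.05. Log2 fold changes are G3 PGC1aOE minus G3, log2 CPM used a prior count of 2, and intervals are at 95%. The biological coefficient of variation was 31.2%. Alternatives used DESeq2 1.42.0, limma 3.58.1 (voom, and log2 FPKM with pseudocounts of 1 and 0.1), other scalings and filters, covariates for the code's number and text, a replicate block, leaving out each library, and subtracting from each library its lowess trend (span 0.3) on gene length or on GC content. Principal transcript lengths came from GENCODE M21. The fit was tested on simulated data.

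Members, gene lists and motifs were chosen with earlier results of these data known. Named first was Ppargc1a, then in each role the 2 members of smallest unadjusted p and the 2 of highest mean FPKM, the c subunit genes and Atpif1. Any other member or gene is named to account for its group, or was chosen after its values were seen. No library was close to a duplicate of another.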

Additional observations from a re-analysis of the deposited data

How the results depend on the processing

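No alternative called any member. Over all genes DESeq2 called 1 gene, Col3a1, and the fit with a replicate block called 4, none a member, where edgeR without a block called 0. Pairing by replicate number was not evident: deviations of same-numbered libraries correlated at 0.456, 0.123 and −0.0863, and not every library correlated best with its own number. These values cannot settle whether the libraries were paired. With the replicate block the members' median was 0.44.

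With code number added as a covariate, the median log2 fold change was 0.050 over members, 0.017 for complex III and −0.12 for complex IV assembly. With code text as the covariate it was 0.25 over members, 0.27 for complex III and 0.0045 for complex IV assembly. With the deposited length trend removed it was 0.023 over members, 0.056 for complex III, −0.18 for complex IV assembly, 0.032 for the Fo group and 0.058 for complex IV subunits. With the principal length trend removed, chosen after seeing the data, these were 0.023 over members, 0.0084 for complex III, 0.061 for the Fo group and 0.14 for complex IV subunits. With the code number covariate and length trend together, also chosen after seeing the data, the median was −0.051 over members with 20 above 0. It was −0.13 for complex III, −0.18 for complex IV assembly, −0.037 for the Fo group and 0.0010 for complex IV subunits. The cause was not tested. With 1 library left out, ranges were 0.16 to 0.76 over members, with 32 to 43 above 0, −0.27 to 0.13 for complex II (lowest without G3 PGC1aOE 3), −0.16 to 0.32 for F1 (lowest without G3 PGC1aOE 2) and −0.18 to 0.30 for complex IV assembly (lowest without G3 PGC1aOE 3). The range for complex III was 0.16 to 0.83, for the Fo group 0.29 to 0.85 and for complex IV subunits 0.41 to 0.94, each highest without G3 PGC1aOE 1.

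Some named members changed sign. Atp5g2 was at −0.085 and −0.086 on log2 FPKM with pseudocounts of 1 and 0.1, −0.35 with the code number, −0.12 with the code text, −0.36 and −0.44 with the deposited and principal length trends removed, −0.032 with the GC trend removed, −0.47 with code number and length, and between −0.15 and 0.33 with 1 library left out. Atp5g3 was at −0.079 with the principal length trend removed and Atp5mpl at −0.015 with the deposited one. With code number and length together, log2 fold changes were −0.045 for Atp5g3, −0.015 for Atp5d, −0.031 for Atp5o, −0.088 for Cox14, −0.021 for Cox7c and −0.16 for Uqcr11. With 1 library left out, Atp5d ran between −0.17 and 0.73 and Cycs between −0.033 and 0.59. Scalings that move all genes also turned signs of members near 0: upper quartile scaling, which moved the median of all genes by 0.040, turned 1 member, Uqcrc2, and the FPKM fits, which moved it by −0.088 and −0.11 with pseudocounts of 1 and 0.1, turned 7. With 3 libraries against 4 and a biological coefficient of variation of 31.2%, a missed threshold does not show that the groups were alike.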

Other observations

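G3 PGC1aOE 2 and 3, both high for most members, differed from each other gene by gene. Among members, log2 CPM in G3 PGC1aOE 2 minus that in G3 PGC1aOE 3 ran between −1.19 for Cox15 and 1.04 for Atp5d, with Uqcrc1 at 0.83 and Uqcr11 at 0.77 on one side and Sdhd at −0.99, Sdha at −0.85 and Cycs at −0.70 on the other. Across the 50 members this difference had a Spearman correlation of 0.75 with transcript GC content, and across 12648 tested genes 0.57. These are correlations across genes of 2 libraries, given as a description.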
